A study of Homo sapiens with 4 samples.

Results

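HAMP, the gene of the iron hormone hepcidin, was examined together with 9 genes that are known targets or feedback parts of bone morphogenetic protein (BMP) signalling through SMAD proteins: ID1, ID2, ID3, ID4, SMAD6, SMAD7, SMAD9, BAMBI and ATOH8. The 10 genes were taken by symbol from the deposited tables, where each is listed once among 24462 distinct gene symbols. They were chosen with the values in view, because HAMP was nearly absent from both libraries of siRNA-transfected cells, so every difference below is a description and none was tested. The cells were HepG2, a line established from a human liver tumour and grown in RPMI medium with serum. There were 4 libraries, 1 per condition: cells given DMSO (the solvent), cells given PD0332991 (an inhibitor of the kinases CDK4 and CDK6), cells transfected with a scrambled siRNA, and cells transfected with siRNAs against CDK4 and CDK6 together (CDK4/6 KD). How much PD0332991 was given, for how long, and when transfected cells were collected are not given in the sources used here. Scrambled siRNA and DMSO cells differed in more than transfection, since only the DMSO cells are labelled as having had the solvent, so the parts played by the oligo, the transfection, the solvent and the culture cannot be told apart.

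Hepcidin is a small peptide that hepatocytes secrete into blood, where it binds the iron exporter ferroportin and so lowers iron release into plasma. In the liver its gene is switched on by BMP6 and related ligands, which bring together type I and type II receptors and the co-receptor hemojuvelin. The receptors phosphorylate SMAD1, SMAD5 and SMAD8 (the product of SMAD9), which enter the nucleus with SMAD4. ID genes are classical targets of the same SMADs, and SMAD6, SMAD7 and BAMBI are induced as brakes on the pathway.

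The 250 bases before each RefSeq transcription start of these genes were searched for 3 short sequences, because all of these genes are described as SMAD targets. SMAD7 has several such starts, and a gene was counted if any of its windows matched. The sequences were GGCGCC (the GC-rich element bound by SMAD1 and SMAD5), GTCTAGAC (a palindrome bound by SMAD3 and SMAD4) and TTCNNNGAA (the element bound by STAT factors). Each reads the same on both strands. The windows with a match in HAMP, ID3, SMAD6 and BAMBI are shown 5′ to 3′ (RefSeq, GRCh38.p14), with the matched bases in capitals. HAMP lies at chr19:35282278-35282527 on the plus strand, ID3 at chr1:23559502-23559751 on the minus strand, SMAD6 at chr15:66701986-66702235 on the plus strand and BAMBI at chr10:28677271-28677520 on the plus strand.
HAMP: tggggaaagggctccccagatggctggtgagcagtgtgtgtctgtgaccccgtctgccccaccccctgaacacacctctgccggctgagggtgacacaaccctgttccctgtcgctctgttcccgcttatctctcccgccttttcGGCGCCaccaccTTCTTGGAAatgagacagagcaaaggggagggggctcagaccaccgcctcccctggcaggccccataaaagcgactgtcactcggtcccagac
ID3: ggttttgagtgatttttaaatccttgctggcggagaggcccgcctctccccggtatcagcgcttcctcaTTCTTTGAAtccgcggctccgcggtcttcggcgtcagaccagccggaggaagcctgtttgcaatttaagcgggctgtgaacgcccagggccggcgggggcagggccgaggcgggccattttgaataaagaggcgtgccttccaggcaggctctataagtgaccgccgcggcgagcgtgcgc
SMAD6: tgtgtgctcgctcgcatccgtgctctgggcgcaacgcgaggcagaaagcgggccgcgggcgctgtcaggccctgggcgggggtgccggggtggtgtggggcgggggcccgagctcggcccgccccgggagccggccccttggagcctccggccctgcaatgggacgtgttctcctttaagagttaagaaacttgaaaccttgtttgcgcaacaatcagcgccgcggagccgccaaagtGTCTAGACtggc
BAMBI: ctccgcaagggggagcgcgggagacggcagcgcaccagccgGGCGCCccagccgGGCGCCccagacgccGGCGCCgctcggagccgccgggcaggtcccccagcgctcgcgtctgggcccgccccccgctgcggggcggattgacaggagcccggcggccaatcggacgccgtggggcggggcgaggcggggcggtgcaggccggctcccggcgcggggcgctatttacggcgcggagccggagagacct

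In the HAMP window, GGCGCC began 105 bases and TTCTTGGAA 93 bases before the start. GGCGCC was found in 2 of the 10 genes, HAMP and BAMBI, and in 16.4% of 34943 windows of the same length. The count is by gene and the share by window. BAMBI carried it 3 times, and any relation of a match to the fold changes was not tested. TTCNNNGAA was found in HAMP and ID3 (6.56% of all windows), and GTCTAGAC in SMAD6 (0.183%). A match is not a bound site, and genes without one may be bound elsewhere.

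The libraries held between 8983848 and 11176880 reads, and levels are given as CPM (reads set to a common library size) after scaling with edgeR's TMM factors, which ran from 0.957 to 1.03. Since the 3′ tag method yields reads from the end of a transcript, a level does not grow with transcript length. For each fold change a 95% interval was computed by the exact Clopper-Pearson method from how a gene's reads divide between 2 libraries. These intervals, like those of levels and shares, cover counting error only and take no account of PCR copies or of spread between cultures, for which there is no replicate check. A count of 3 reads, 0.265 to 0.329 CPM, was taken as the floor, and a fold change against 0 reads was set against that floor. The genes the siRNAs were aimed at had CDK4/6 KD levels of 0.203 (CDK4) and 0.241 (CDK6) times those of scrambled siRNA. The hepatocyte markers ALB, APOA1, APOB, TTR, AFP and SERPINA1 were present in all libraries, with a summed level of 13820 to 17386 CPM. Of the markers of endothelial cells, the main source of BMP6 in liver, VWF, CDH5 and KDR had at most 3 reads in every library, and PECAM1 had 4, 1, 5 and 1 in DMSO, PD0332991, scrambled siRNA and CDK4/6 KD.

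HAMP was the gene with the lowest ratio of scrambled siRNA to DMSO among 13303 genes. It had 655 reads in DMSO, 394 in PD0332991, 0 in scrambled siRNA and 1 in CDK4/6 KD, or 71.7 CPM, 43.3 CPM, 0 and 0.0883 CPM. The hormone's transcript was thus plentiful in both libraries of cells without siRNA and at or under the floor in both libraries of transfected cells. Set against the floor, HAMP was 256-fold lower with scrambled siRNA than with DMSO. From the counts themselves, the 95% interval of HAMP in this comparison ended at a ratio of 0.00482. In CDK4/6 KD its ratio to DMSO was 0.00191 (95% interval 3.12e-05 to 0.00689), and no ratio of CDK4/6 KD to scrambled siRNA can be given with both at the floor. PD0332991 cells had less HAMP than DMSO cells (fold change: 0.604, 95% interval 0.531 to 0.685). USF2, a transcription factor gene on the same chromosome that was listed among the regulators of liver genes, had 1359, 1672, 1279 and 1589 reads in the same order, so the ratio of HAMP to USF2 reads was 0.482 in DMSO, 0.236 in PD0332991 and at most 0.00351 (upper interval end) in the siRNA libraries. For the count of 0 in scrambled siRNA the counting interval ends at 0.345 CPM, and the floor of 3 reads stands at 0.28 CPM there.

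The plot of levels by library shows the 10 genes side by side.

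**Figure D1:**
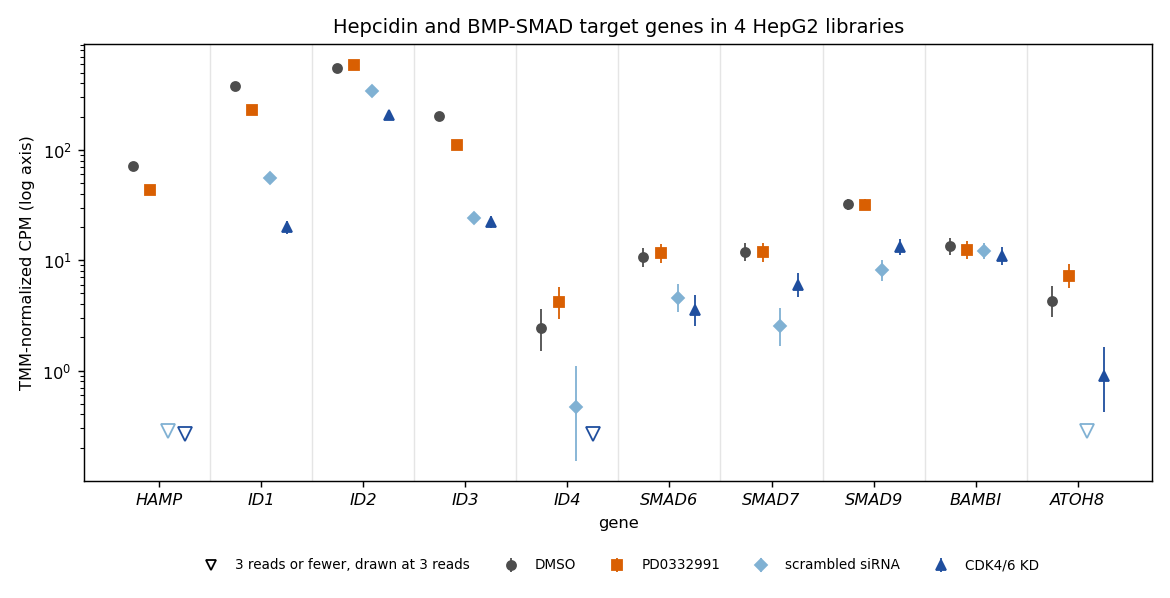
TMM-normalized CPM (log axis) of the 10 genes in the 4 libraries, with 95% counting intervals as bars; open triangles mark 3 reads or fewer, drawn at the level of 3 reads. HAMP sits at 71.7 and 43.3 CPM in the libraries without siRNA and at the floor in the siRNA libraries, ID1 is lower at each step from DMSO to CDK4/6 KD, ID3 is at 24 and 22.1 CPM in the siRNA libraries, and BAMBI stays between 11 and 13.4 CPM.

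The ID proteins are helix-loop-helix factors without a DNA-binding region, which hold E proteins away from DNA. ID1 had 377 CPM in DMSO, 227 in PD0332991, 55.2 in scrambled siRNA and 20 in CDK4/6 KD, on 3444, 2070, 591 and 226 reads. No intervals of these levels overlapped. ID1 was lower with scrambled siRNA than with DMSO (fold change: 0.147, 95% interval 0.134 to 0.16), lower again in CDK4/6 KD than in scrambled siRNA (fold change: 0.362, interval 0.309 to 0.422), and lower in PD0332991 than in DMSO (fold change: 0.603, interval 0.571 to 0.637). Of the 8 genes that could be compared within the siRNA pair, ID1 alone was lower by 2-fold or more in CDK4/6 KD. ID3 had 203 CPM in DMSO, 111 in PD0332991, 24 in scrambled siRNA and 22.1 in CDK4/6 KD, on 1856, 1011, 257 and 250 reads. Its fold change was 0.118 in scrambled siRNA against DMSO (interval 0.103 to 0.135) and 0.547 in PD0332991 against DMSO (interval 0.506 to 0.59). Unlike for ID1, the interval of CDK4/6 KD against scrambled siRNA included 1 for ID3 (fold change: 0.92, interval 0.77 to 1.1), so the siRNA libraries could not be told apart at this depth.

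ID2, which also binds the retinoblastoma protein that CDK4 and CDK6 phosphorylate, had 555 CPM in DMSO, 586 in PD0332991, 338 in scrambled siRNA and 206 in CDK4/6 KD, on 5075, 5333, 3615 and 2328 reads. The order was that of ID1 except for PD0332991, where ID2 was slightly above DMSO (fold change: 1.05, interval 1.01 to 1.1). ID2 was 0.608 of DMSO in scrambled siRNA (interval 0.583 to 0.635) and 0.609 of scrambled siRNA in CDK4/6 KD (interval 0.578 to 0.641), neither reaching 2-fold. ID4 was scarce, with 22 reads in DMSO, 38 in PD0332991, 5 in scrambled siRNA and 1 in CDK4/6 KD. Its ratio of scrambled siRNA to DMSO was 0.211 (interval 0.0574 to 0.525), and the interval for PD0332991 against DMSO just included 1 (fold change: 1.72, interval 0.999 to 3.08). Too few ID4 reads were left in the siRNA libraries to compare these with each other.

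The make-up of the ID family does not depend on how libraries are scaled, because it is a share within one library. ID1 gave 33.1% of all ID1 to ID4 reads in DMSO (interval 32.2% to 34%), 24.5% in PD0332991 (23.6% to 25.4%), 13.2% in scrambled siRNA (12.2% to 14.3%) and 8.06% in CDK4/6 KD (7.08% to 9.13%). ID2 made up 48.8%, 63.1%, 80.9% and 83% in the same order. Shares of one library add to a whole, so a smaller ID1 part leaves a larger part to the others. The ID2 level itself was 555 CPM in DMSO and 206 in CDK4/6 KD. ID3 gave 17.9%, 12%, 5.75% and 8.91%. The ID3 share was thus larger in CDK4/6 KD than in scrambled siRNA, with intervals of 7.88% to 10% and 5.09% to 6.48%. Its level was not higher there, at 22.1 CPM beside 24 in scrambled siRNA.

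**Figure D2:**
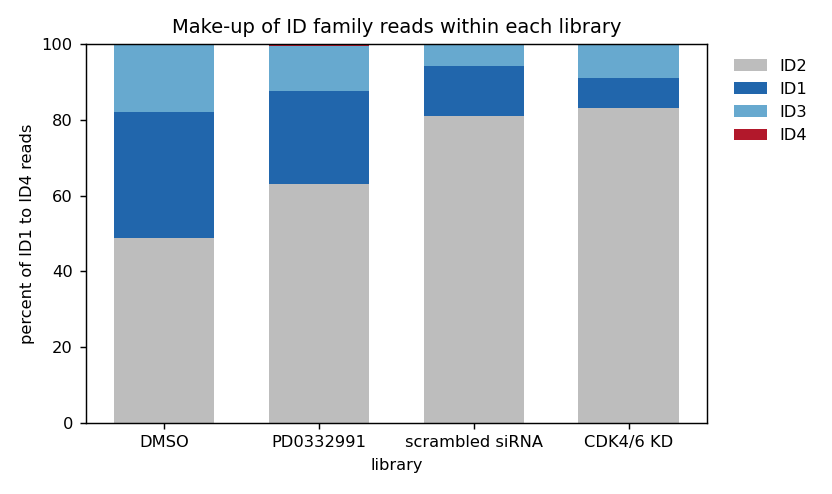
Percent of the reads of ID1, ID2, ID3 and ID4 that came from each gene, 1 bar per library. The ID2 part widens from 48.8% in DMSO to 83% in CDK4/6 KD, although the ID2 level was lower in CDK4/6 KD. ID4, at most 0.45%, is too small to see.

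SMAD6 and SMAD7 encode the inhibitory SMADs, which block the receptors and recruit ubiquitin ligases to them, and SMAD9 encodes SMAD8, a receptor SMAD whose own gene is a BMP target. SMAD7 had 109 reads in DMSO, 108 in PD0332991, 27 in scrambled siRNA and 68 in CDK4/6 KD, or 11.9, 11.9, 2.52 and 6.01 CPM. SMAD9 had 293, 291, 87 and 149 reads, or 32.1, 32, 8.13 and 13.2 CPM. Both genes had their lowest level in scrambled siRNA, and PD0332991 matched DMSO within counting error (fold changes of 0.994, interval 0.755 to 1.31, and 0.997, interval 0.844 to 1.18). In scrambled siRNA against DMSO the fold changes were 0.215 for SMAD7 (interval 0.133 to 0.325) and 0.255 for SMAD9 (interval 0.197 to 0.323). In CDK4/6 KD both were above scrambled siRNA, with fold changes of 2.36 for SMAD7 (interval 1.5 to 3.87) and 1.62 for SMAD9 (interval 1.23 to 2.13), the direction opposite to that of ID1. Against DMSO, both were lower in CDK4/6 KD, at 0.506 (interval 0.366 to 0.688) and 0.411 (interval 0.335 to 0.502), so the direction depended on the control library.

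SMAD6 had 97 reads in DMSO, 105 in PD0332991, 49 in scrambled siRNA and 40 in CDK4/6 KD, or 10.6, 11.5, 4.58 and 3.53 CPM. It was lower with scrambled siRNA than with DMSO (fold change: 0.434, interval 0.3 to 0.614), and the interval of CDK4/6 KD against scrambled siRNA included 1 (fold change: 0.774, interval 0.495 to 1.2). The inhibitory SMADs thus stood in a different ratio in each siRNA library, with 0.551 reads of SMAD7 per read of SMAD6 in scrambled siRNA (interval 0.331 to 0.899) and 1.7 in CDK4/6 KD (interval 1.13 to 2.58), where DMSO had 1.12 and PD0332991 had 1.03.

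ATOH8, a basic helix-loop-helix factor reported to act on the HAMP promoter, had 39 reads in DMSO, 66 in PD0332991, 0 in scrambled siRNA and 10 in CDK4/6 KD, or 4.27, 7.25, 0 and 0.883 CPM. Its order resembled that of HAMP for transfected against other cells but not for PD0332991, where ATOH8 was above DMSO (fold change: 1.69, interval 1.13 to 2.59). Set against the floor, ATOH8 was 15.2-fold lower with scrambled siRNA than with DMSO (interval of the ratio ending at 0.0847). It was 3.15-fold higher in CDK4/6 KD than in its siRNA control (interval from 2.12), on 10 reads against 0. BAMBI, a receptor without a kinase domain that acts as a decoy, had 122, 113, 130 and 124 reads in DMSO, PD0332991, scrambled siRNA and CDK4/6 KD, or 13.4, 12.4, 12.1 and 11 CPM. All 3 of its intervals included 1, with fold changes of 0.91 for scrambled siRNA against DMSO (interval 0.705 to 1.17), 0.902 for CDK4/6 KD against scrambled siRNA (interval 0.699 to 1.16) and 0.93 for PD0332991 against DMSO (interval 0.713 to 1.21). BAMBI was the one member for which no pair of libraries could be told apart by its counts.

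**Figure D3:**
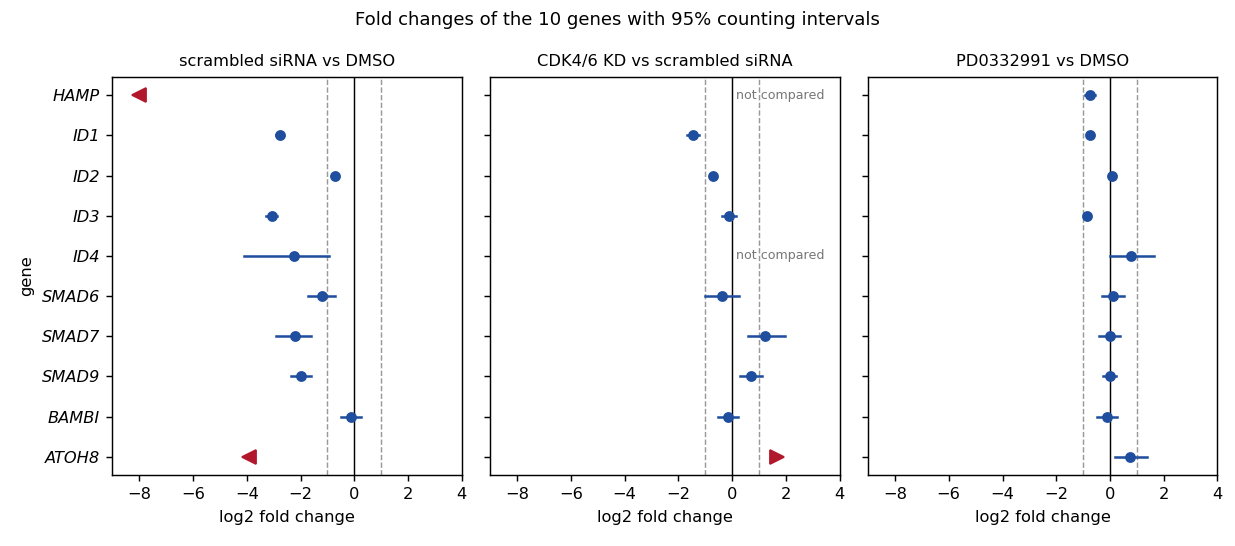
log2 fold change of the 10 genes in 3 comparisons, with 95% counting intervals as lines, dashed lines at 2-fold, and red triangles for bounds against a library with 0 reads, pointing away from 0. Of the 10 genes, 8 lie past 2-fold on the left in scrambled siRNA against DMSO, the genes spread to both sides in CDK4/6 KD, and none passes 2-fold after PD0332991.

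Over the 10 genes, 8 were at least 2-fold lower and none at least 2-fold higher with scrambled siRNA than with DMSO, and ID2 and BAMBI were the exceptions. The same held for 6.64% (lower) and 5.3% (higher) of all 13303 genes that had 10 reads or more in one of these libraries. The genes were selected on this contrast, so nothing is read from these counts. On the log2 scale the 10 genes had a median difference of -2.23, with HAMP and ATOH8 at their bounds, and that of all genes was 0.0088. For 9 of the 10 genes the interval lay under 1, as it did for 28% of all genes. Both siRNA libraries lay below both other libraries for all 10 genes (15.3% of 13961 genes with at least 10 reads in any library) and above them for none (16.2%), and for BAMBI these gaps were within its intervals. In 7 of the 10 genes (all but ID2, SMAD7 and BAMBI) both siRNA libraries were at least 2-fold below both other libraries, a pattern found in 0.981% of all genes. The genes were chosen because HAMP was nearly absent from both siRNA libraries, so nothing is read from these patterns either.

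Scrambled siRNA is the control of CDK4/6 KD, and DMSO that of PD0332991, so each of these comparisons shares a library with the one above. Within the siRNA pair 8 of the 10 genes could be compared, and differences of both signs occurred, SMAD7 and ATOH8 being at least 2-fold higher in CDK4/6 KD and ID1 at least 2-fold lower. Among all 13617 genes the shares were 9.19% higher and 7.62% lower, and the 8 genes had a median of -0.13 on the log2 scale, beside -0.0036 for all genes. Intervals lay above 1 for SMAD7, SMAD9 and ATOH8 (30% of all genes) and under 1 for ID1 and ID2 (31.9%). Against DMSO, CDK4/6 KD had 8 of the 10 genes at least 2-fold lower (8.16% of all genes) and none higher (8.04%, or 16.2% in either direction), and PD0332991 against scrambled siRNA had 8 higher (10.6%) and none lower (8.17%). Both of these set a siRNA library against one without siRNA, as the choice of genes did, so nothing is read from them. PD0332991 against DMSO gave no gene of the 10 past 2-fold, where 14.6% of 13443 genes were (7.49% higher and 7.06% lower). HAMP, ID1 and ID3 had intervals under 1 after PD0332991 (0.604, 0.603 and 0.547), as did 28.6% of all genes, while ID2 and ATOH8 had intervals above 1, as did 28.1%. ID1 was the one gene of the 8 compared in both with intervals under 1 for the drug and the knockdown. HAMP and ID4 could not be compared within the siRNA pair. The share of all genes under 1 in both comparisons was not computed, so nothing is read from this overlap.

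The pathway above the targets was read from lists of ligands, antagonists, receptors and SMADs. Among 12 BMP ligands, 8 had at most 3 reads in every library, BMP2 among them, and the reads came almost wholly from BMP4 and BMP6. BMP6, the ligand that sets hepcidin to iron stores, had 2649 reads in DMSO, 2179 in PD0332991, 1956 in scrambled siRNA and 2496 in CDK4/6 KD. Its fold changes stayed within 2-fold, at 0.631 for scrambled siRNA against DMSO (interval 0.594 to 0.669), 1.21 for CDK4/6 KD against scrambled siRNA (interval 1.14 to 1.28) and 0.825 for PD0332991 against DMSO (interval 0.78 to 0.874). BMP4 had 6396, 3420, 6936 and 5495 reads in the same order of libraries. It was lower after PD0332991 (fold change: 0.537, interval 0.515 to 0.559). In scrambled siRNA BMP4 was 0.926 of DMSO (interval 0.895 to 0.958). Any part of these ligands in the levels of the target genes was not tested. Per read of BMP6 there were 1.3 reads of ID1 in DMSO, 0.95 in PD0332991, 0.302 in scrambled siRNA and 0.0905 in CDK4/6 KD.

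Of 7 receptor genes, ACVRL1 and BMPR1B had at most 3 reads in every library. The other 5 could be compared, and none was 2-fold different in scrambled siRNA against DMSO (11.9% of all genes were) or in PD0332991 against DMSO (14.6%). With so few genes, none is near what these shares give. The type I receptor ACVR1 had 132, 192, 147 and 223 reads in DMSO, PD0332991, scrambled siRNA and CDK4/6 KD, and BMPR1A, the other type I receptor used by hepatocytes, had 33, 36, 35 and 75, which made it 2.01-fold higher in CDK4/6 KD than in its siRNA control (interval 1.34 to 3.12). BMPR2, a type II receptor, had 257, 322, 216 and 131 reads and was lower in CDK4/6 KD than in its siRNA control (fold change: 0.574, interval 0.458 to 0.716). ACVR2A and ACVR2B, also type II, stayed within 2-fold in all 3 comparisons. The signal carriers SMAD1, SMAD5, SMAD2, SMAD3 and SMAD4 all stayed within 2-fold in all 3 comparisons. Most genes did so too, since 16.8% of all genes passed 2-fold within the siRNA pair and fewer in the other comparisons. In scrambled siRNA against DMSO their fold changes were 0.866, 0.747, 0.636, 1.04 and 0.703, none near the 0.255 of SMAD9. SMAD9 therefore gave 0.265 reads per read of SMAD5 in DMSO and 0.0899 in scrambled siRNA.

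The co-receptors and iron sensors that feed into HAMP differed among themselves. HJV, the gene of hemojuvelin, had at most 3 reads in every library. TFR2, the transferrin receptor that senses plasma iron in hepatocytes, had 124 reads in DMSO, 421 in PD0332991, 75 in scrambled siRNA and 420 in CDK4/6 KD, so that it was higher than the matched control in both comparisons (fold changes of 3.4, interval 2.78 to 4.2, after PD0332991, and 5.27, interval 4.13 to 6.86, in CDK4/6 KD). TMPRSS6, a protease that cleaves hemojuvelin and lowers HAMP, had 19, 44, 7 and 55 reads and was likewise above the matched control in both (fold changes of 2.29, interval 1.33 to 4.21, and 7.01, interval 3.37 to 19.3). HFE, the haemochromatosis protein, had 11, 10, 31 and 2 reads, which put it in the opposite order in the siRNA pair (fold change of CDK4/6 KD to scrambled siRNA: 0.0755, interval 0.00707 to 0.24). NEO1, RGMB and TFRC stayed within 2-fold in all 3 comparisons (0.752, 0.614 and 0.592 in scrambled siRNA against DMSO), and RGMA had at most 4 reads. With HAMP at the floor in both siRNA libraries, any part of these genes in its level was not tested.

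Secreted antagonists of BMPs and activins were at least 2-fold lower with scrambled siRNA than with DMSO for 4 of the 6 that could be compared, as were 6.64% of all genes. FST, which encodes the activin trap follistatin, had 722 reads in DMSO, 921 in PD0332991, 171 in scrambled siRNA and 177 in CDK4/6 KD (scrambled siRNA over DMSO: 0.203, interval 0.17 to 0.239). GREM1, FSTL3 and TWSG1 were the others, at 0.273, 0.374 and 0.485, while CHRD, which encodes chordin, was 0.992 (interval 0.877 to 1.12). Among 10 SMAD ubiquitin ligases and repressors, SKIL alone was 2-fold lower with scrambled siRNA than with DMSO (fold change: 0.313, interval 0.239 to 0.404), near the share of 6.64% of all genes. PPM1A, a SMAD phosphatase, was alone in being 2-fold higher in CDK4/6 KD than in its siRNA control (fold change: 2.83, interval 2.38 to 3.39), near the share of 9.19%.

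Of 13 further genes known as BMP targets in other tissues, 5 could be compared between scrambled siRNA and DMSO. DLX2 (fold change: 0.236, interval 0.11 to 0.438, on 12 and 45 reads) and GATA2 (fold change: 0.437, interval 0.353 to 0.537) were at least 2-fold lower, MSX1 and HES1 were lower by less than 2-fold (0.655 and 0.737), and the interval of JUNB included 1 (1.16). At least 2-fold lower were 6.64% of all genes. The list had a median log2 fold change of -0.61, beside 0.0088 for all genes. GATA2 was also lower after PD0332991 (fold change: 0.473, interval 0.38 to 0.585).

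Targets of the TGF-beta branch, which signals through SMAD2 and SMAD3, differed in both directions. Of the 8 genes of the list compared, 2 were higher by 2-fold or more (5.3% of all genes) and 1 lower (6.64%) with scrambled siRNA than with DMSO. BHLHE40, a helix-loop-helix repressor, had 78 reads in DMSO, 90 in PD0332991, 200 in scrambled siRNA and 52 in CDK4/6 KD. It was highest in scrambled siRNA (scrambled siRNA over DMSO: 2.18, interval 1.68 to 2.88) and lowest in CDK4/6 KD. SMAD7, SMAD9 and ATOH8 had their lowest levels in scrambled siRNA. ID1 and ID2 had theirs in CDK4/6 KD. For ID3, SMAD6 and BAMBI the interval of CDK4/6 KD against scrambled siRNA included 1. ID4 had too few reads to compare the siRNA libraries, and HAMP was at the floor in both of them. Any part of BHLHE40 in these levels was not tested. TGFBI, in contrast, was lower with scrambled siRNA than with DMSO (0.375) and lower again in CDK4/6 KD (0.379), as ID1 was, but not after PD0332991 (1.16).

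HAMP is also induced by interleukin 6 through STAT3 and needs liver factors such as CEBPA. IL6ST, the signalling receptor subunit, had 1230 reads in DMSO, 1254 in PD0332991, 370 in scrambled siRNA and 1843 in CDK4/6 KD. SOCS3, a STAT3 target, had 35, 32, 17 and 52. HP, FGA, FGB and FGG, which encode acute phase proteins, were each at least 2-fold higher in CDK4/6 KD than in its siRNA control, with fold changes from 2.62 for FGB to 3.38 for FGA, so that with IL6ST (4.7) and SOCS3 (2.84) 6 of the 10 genes compared on this route were at least 2-fold higher there, as were 9.19% of all genes. Against DMSO, 3 of these 10 genes, FGA, FGB and FGG, were at least 2-fold higher in CDK4/6 KD (8.04% of all genes). IL6ST, SOCS3 and HP were at least 2-fold lower with scrambled siRNA than with DMSO (6.64% of all genes), so their difference depended on the control library. HAMP was at the floor in both siRNA libraries, and any part of this route in its level was not tested. CEBPA had 1466, 1174, 418 and 712 reads in DMSO, PD0332991, scrambled siRNA and CDK4/6 KD. Of the 11 liver factors compared, CEBPA, NR1H4, ONECUT1 and FOXA1 were at least 2-fold lower with scrambled siRNA than with DMSO (0.244, 0.264, 0.332 and 0.479). So were 6.64% of all genes, and HNF4A was 1.01 (interval 0.935 to 1.08). CEBPB, NR1H4, ONECUT1 and FOXA1 were at least 2-fold higher in CDK4/6 KD than in its siRNA control, as were 9.19% of all genes. Against DMSO none of these genes was at least 2-fold higher in CDK4/6 KD, and 1 of the 11 factors was, CREB3L3 (8.04% of all genes). Of the E proteins that ID factors bind, TCF3 and TCF12 stayed within 2-fold in all 3 comparisons, with 0.694 and 0.887 in scrambled siRNA against DMSO. TCF4, the other one listed, had 7 reads in DMSO, 18 in PD0332991, 15 in scrambled siRNA and 1 in CDK4/6 KD. It passed 2-fold on these few reads both after PD0332991 (fold change: 2.47, interval 1.03 to 7.31) and, downward, in CDK4/6 KD against scrambled siRNA (fold change: 0.0924, interval 0.0015 to 0.41).

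**Figure D4:**
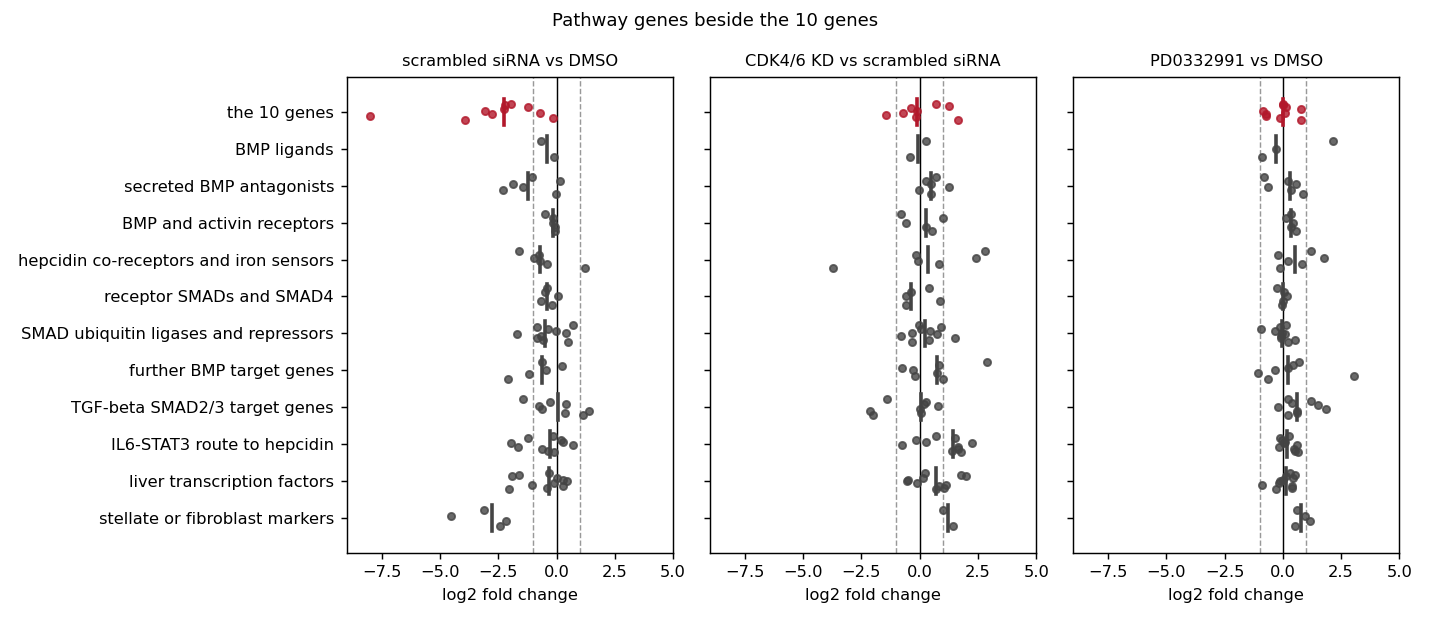
log2 fold change of the 10 genes (red) and of the genes of 11 lists (grey) in 3 comparisons; each point is a gene that could be compared, bars are medians, dashed lines mark 2-fold, and zero counts are placed at their bounds. In scrambled siRNA against DMSO the median of the 10 genes, which were selected on this contrast, is -2.23. That of the receptors is -0.14 and that of the stellate or fibroblast markers -2.76.

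The genes whose levels over the 4 libraries were most like those of HAMP were LCN15, LDLRAD1, ATOH8, PCDHGB7 and COL3A1, by the root mean square difference of centred log2 CPM among 13960 genes (2.1, 2.45, 2.59, 2.71 and 2.82). LCN15, which encodes a lipocalin, had 61 reads in DMSO, 84 in PD0332991, 0 in scrambled siRNA and 6 in CDK4/6 KD. LDLRAD1 had 91, 198, 7 and 2. These genes had fewer reads than HAMP in DMSO and came to or near the floor in the siRNA libraries, so their depth limits how large a difference they can show. Of the other members, ID4 ranked 17, ID1 29 and ID3 36, and BAMBI 4605.

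Markers of other cells differed between the same libraries. Of the 5 stellate or fibroblast markers listed, COL1A1, COL1A2, COL3A1, PDGFRB and LUM, the 4 that could be compared were all at least 2-fold lower with scrambled siRNA than with DMSO, as were 6.64% of all genes, and the list of 5 summed to 48.3 CPM in DMSO, 76.9 in PD0332991, 8.6 in scrambled siRNA and 22.5 in CDK4/6 KD. LUM had 2, 8, 0 and 0 reads in that order, and the keratinocyte marker KRT1 had 0, 6, 1 and 2. The keratinocyte markers KRT5, KRT6A and KRT14 had 2, 9 and 9 reads in DMSO and 113, 150 and 249 in PD0332991 (fold changes of 45.5, interval 15.3 to 474, 15.9, interval 8.58 to 37.3, and 26.4, interval 14.4 to 61.4), and were also at least 2-fold higher with scrambled siRNA than with DMSO. The keratinocyte list of 5 summed to 68.5 CPM in DMSO, 134 in PD0332991, 55.7 in scrambled siRNA and 100 in CDK4/6 KD, most of it from KRT10. The part of other cells, or of fewer expressing cells against less RNA per cell, in the values of HAMP and its companions was not tested. Of the leukocyte markers, PTPRC and CD3E were at the floor in every library, while CD68, a lysosomal protein gene used as a macrophage marker, had 75 reads in DMSO, 112 in PD0332991, 136 in scrambled siRNA and 77 in CDK4/6 KD.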

How the data were processed

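HepG2 RNA was profiled with the QuantSeq 3′ kit. For each condition the authors deposited 1 table of unnormalized counts by gene symbol. Per the labels, the submitters' notes name Bowtie2, edgeR and hg19, with no role or version. The read counter, annotation and use of strand are not given in the sources used here. Of 25737 entries, counts of the 286 repeated symbols were summed, giving 24462 genes.

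Samples were grouped by their titles. Library sizes were scaled with TMM (edgeR 4.0.16, R 4.3.3). A pseudocount of 0.5 reads, in proportion to library size, was added before ratios were taken, a gene needed 10 reads in one of the compared libraries, and a ratio of 2 or more either way was counted. With 0 reads in one library the ratio to 3 reads stands as a bound that leaves out counting error in the other library. With both at 3 reads or fewer no ratio was given. Intervals are exact (95% Clopper-Pearson, scipy 1.17.1). With 1 library per condition no test or replicate check was possible, and no p-value was computed. Likeness to HAMP used centred log2 CPM.

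The members and lists were chosen with earlier results of these data known. All 10 members were named. Any gene of a list of up to 8 could be named, of a longer list the 4 with the largest fold change per comparison among those with at least 50 reads, and genes at the floor in all libraries. SOCS3, DLX2 and USF2 were named after their values were seen. One gene of the TGF-beta list is not reported here and was left out of its counts. Other settings tried were DESeq2 1.42.0 size factors, total counts, quantile normalization (limma 3.58.1), a pseudocount of 5, no filter, a filter of 50 reads, the most counted entry of repeated symbols, and the other arm's control. The calculation was tested on simulated counts with known folds. Promoter windows come from the RefSeq table, in which all 10 symbols matched. GENCODE 29 lists no gene over the 3′ end of any member and no pseudogene named for one.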

Additional observations from a re-analysis of the deposited data

Results flagged for a closer look

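ID2 was lower in CDK4/6 KD than in its siRNA control (fold change: 0.609) and slightly higher in PD0332991 than in DMSO (fold change: 1.05), with counting intervals on opposite sides of 1. The difference between these comparisons was not tested, since each condition had 1 library.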

How the results depend on the processing

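With the other control library in place of the matched one, the counts turned. Against DMSO, 8 of the 10 genes were at least 2-fold lower in CDK4/6 KD and none higher, in place of 1 lower and 2 higher against scrambled siRNA, with log2 fold changes of -0.98 for SMAD7 and -2.21 for ATOH8, both above 0 against scrambled siRNA. Against scrambled siRNA, 8 were at least 2-fold higher in PD0332991, in place of 0 against DMSO. Of 26 recomputed counts the other 24 stayed within 1.5 times, among them the 10 genes with both siRNA libraries below both others, which was recomputed under 3 scalings chosen after the data were examined. Of 216 recomputed single-gene values 194 stayed inside their counting interval. No paired analysis was possible because each condition had 1 library, and for the same reason no library could be left out of a group. At this depth genes with under about 10 reads, such as ID4 in the siRNA libraries, could not be compared.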
